A study of Mus musculus with 4 samples.

Results

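Expression of the PAR bZIP clock output genes *Dbp*, *Tef* and *Hlf*, of their antagonist *Nfil3* and of the Dec repressors *Bhlhe40* and *Bhlhe41* was measured in NIH-3T3:Per2-Luc cells with and without a pulse of critical oxidative stress (cOS-pulse). The members were chosen by name, as all non-control probes whose gene name on the array was one of these 6 symbols. These 6 of 30175 gene names had 8 of 39429 probes, with 2 probes each for *Dbp* and *Bhlhe41* and 1 probe each for the other 4 genes. No further probe carried an accession of these genes under another name. All 8 accessions of the member probes belonged to the named gene in the RefSeq gene table.

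NIH-3T3 is an immortalised mouse embryonic fibroblast line, here with a luciferase reporter driven by the mouse *Per2* promoter. Each condition was 1 array with 1 RNA sample, so there was no replicate and no test between conditions could be made. The control cells received 0 mM H2O2 and fresh medium and carry the time label 4 h. The cOS-pulsed cells received 5 mM H2O2 for 10 min and were taken at 4 h, 20 h or 32 h. The 20 h and 32 h samples had no control of their own time, so the cOS-pulse and the time in culture cannot be told apart there. All 3 comparisons over the control shared the same control array.

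DBP, TEF and HLF are transcriptional activators of the PAR bZIP family that bind D-box elements. In the liver and other tissues their levels follow the daily clock, and *Dbp* is a direct target of CLOCK and BMAL1 through E-boxes. NFIL3 (E4BP4) is a bZIP repressor that binds the same D-box sites. BHLHE40 (DEC1) and BHLHE41 (DEC2) are bHLH repressors that bind E-boxes and are themselves E-box targets, and both also respond to serum and low oxygen.

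Of the fibroblast markers looked at, 11 of 12 were well above background on every array, the exception being *Postn*. Their summed level stayed between 9.61 and 9.80 on the scaled log2 scale. Of 14 markers of other cell types, between 5 (32 h) and 9 (4 h) were well above background, and their summed level lay between 3.17 and 4.69, highest at 4 h. *Cd68*, *Cd79a*, *Cd3e*, *Pecam1* and *Snap25*, known from leukocytes, endothelium and neurons, were well above background on all 4 arrays. *Ptprc*, *Epcam*, *Cdh1*, *Myod1* and *Actc1*, the first a marker of all leukocytes and the others of epithelium and muscle, were not well above background on any array. The part of this difference at 4 h in the values given here was not tested. In a bulk RNA sample, fewer cells with a transcript and less of it per cell cannot be told apart. Between 52.7% and 59.1% of probes were well above background on an array, with the highest share at 4 h. No spot was saturated.

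The promoters of the member genes were read from RefSeq on GRCm38.p6, as windows of 300 bases around the annotated start. Windows were found for 5 of the 6 genes, not for *Bhlhe40*, 6 windows in all, with 2 for *Tef*. The windows of *Dbp* and *Hlf* are shown because these 2 genes had the lowest ratios of the group at 4 h. They lie at chr7:45704997-45705296 (plus strand) and chr11:90390868-90391167 (minus strand). Capitals mark a full cyclic AMP response element (CRE), TGACGTCA.
Dbp: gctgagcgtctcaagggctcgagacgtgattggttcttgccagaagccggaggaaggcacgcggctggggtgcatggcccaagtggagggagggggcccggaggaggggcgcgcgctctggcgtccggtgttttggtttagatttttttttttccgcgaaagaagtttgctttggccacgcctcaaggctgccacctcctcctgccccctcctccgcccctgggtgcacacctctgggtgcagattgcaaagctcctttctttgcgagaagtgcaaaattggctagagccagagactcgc
Hlf: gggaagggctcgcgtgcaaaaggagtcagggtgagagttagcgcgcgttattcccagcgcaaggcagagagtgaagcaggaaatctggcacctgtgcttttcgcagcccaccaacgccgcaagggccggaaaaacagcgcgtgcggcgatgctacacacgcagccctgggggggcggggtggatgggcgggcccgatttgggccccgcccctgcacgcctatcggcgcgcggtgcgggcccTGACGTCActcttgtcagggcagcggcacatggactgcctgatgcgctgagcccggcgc
The *Hlf* window held this CRE 9 bases before the start, a motif found in 1.79% of 32851 promoter windows searched on both strands. The *Dbp* window held none of the motifs searched: the E-box CACGTG, the CRE, the D-box TTANGTAA, the antioxidant response element TGACNNNGC and the heat shock element GAANNTTC. The search covered only the window and these exact letters. Sites elsewhere in the gene, or with other letters, were not looked for. No D-box, antioxidant response element or heat shock element of these letters lay in any of the 6 windows. The *Nfil3* window held the shorter CRE core, CGTCA, 59 bases before the start. This core, which is also part of every full CRE, was present in 20.8% of windows.

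E-boxes lay in 3 of the 6 windows, both of *Tef* and that of *Bhlhe41*, against 7.15% of all windows. The member windows held between 60.3% and 81.7% G or C, beside a median of 52.7% over all windows. The shares of all windows given for the motifs make no allowance for this. Each E-box is shown in capitals with the bases on either side, from both *Tef* starts (chr15:81802423-81802722 and chr15:81811164-81811463, plus strand) and from *Bhlhe41* (chr6:145865371-145865670, minus strand).
Tef, first start: gctgtggctcCACGTGctgcagctgg
Tef, second start: cctggcccagCACGTGtctacatcgt
Bhlhe41: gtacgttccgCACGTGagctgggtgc
They sat 127, 138 and 153 bases before the respective starts. A match of letters describes the window and does not show that a factor binds there.

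Levels are given as log2 of the processed signal minus the 75th percentile of all probes on that array, so 0 is that percentile. An error is the spot error of the scanner software carried through to log2, and it covers the spot, not the culture. It was about 0.20 for the ratios of the brighter members. Probes printed as 10 spots gave a smaller spread of the ratio of a single spot, with a median SD between 0.046 and 0.055. A ratio was measured when both arrays were well above background, and 2-fold served as the threshold for calling a probe higher or lower. The levels of a probe were ranked by size, and neighbours in this ranking were taken as distinct when they differed by more than 2 spot errors.

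The 6 probes of *Dbp*, *Tef*, *Hlf*, *Nfil3* and *Bhlhe40* were well above background on all 4 arrays. At 4 h after the cOS-pulse, *Dbp* and *Hlf* were lower than in the control by more than 2-fold, and no member was higher by that much. At 20 h and 32 h *Nfil3* was at least 2-fold higher. At 20 h *Dbp* had its highest level of the 4 arrays, at 1.62- to 1.63-fold over the control, and at 32 h it lay within the spot error of the control.

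**Figure D1:**
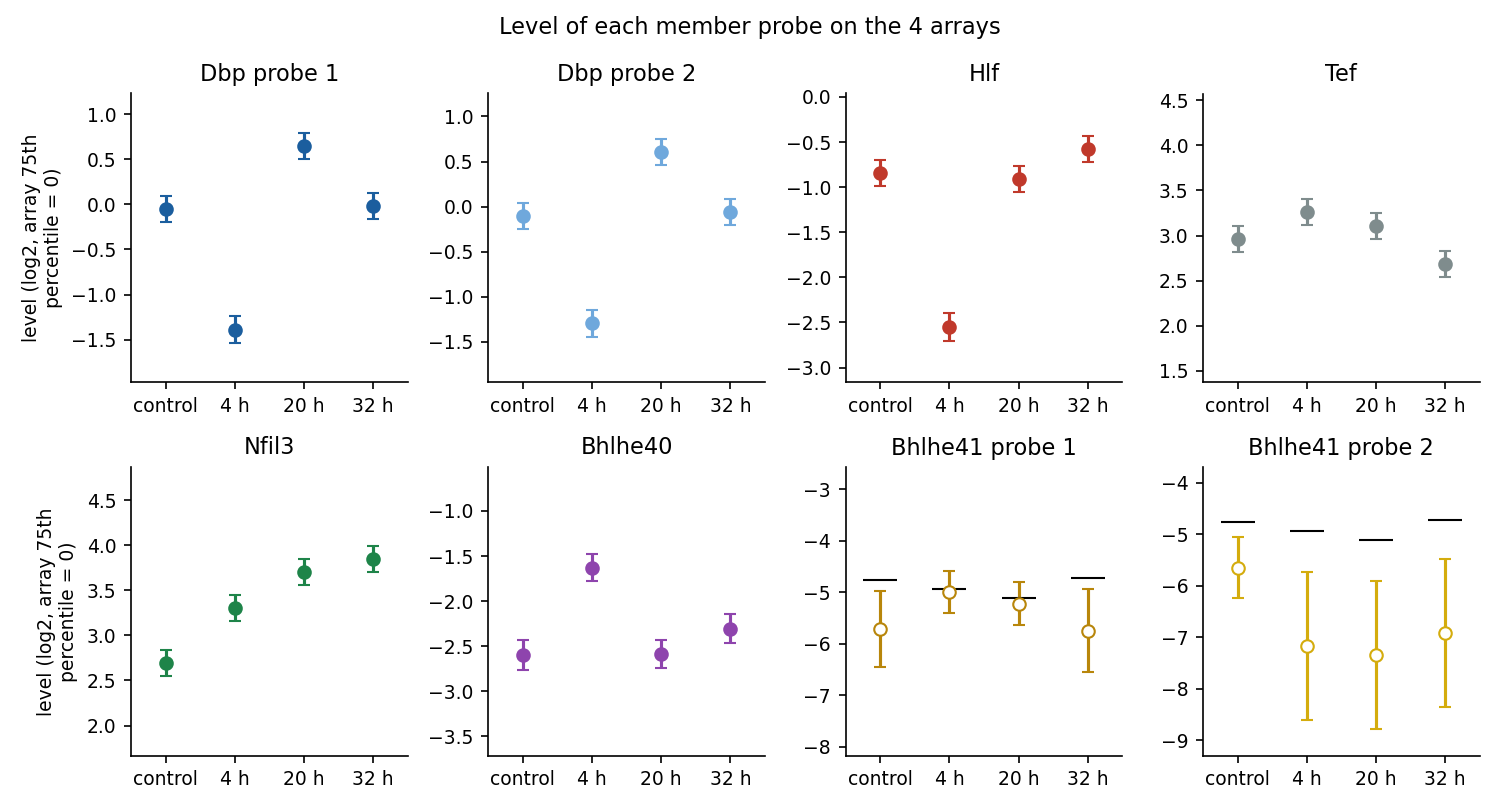
Level of each member probe (log2 signal, 75th percentile of the array at 0) on the control array and at 4 h, 20 h and 32 h after the cOS-pulse. Bars are 1 spot error on either side, and each of the first 6 panels spans the same height. Open circles are spots not well above background, and black ticks give the lowest level well above background on that array. *Dbp* and *Hlf* dip at 4 h, *Nfil3* is lowest in the control and *Bhlhe40* is highest at 4 h.

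*Dbp* encodes a D-box activator with a steep daily rhythm in the liver. Its probe 1, at chr7:52965322-52965381 on mm9 (plus strand), had processed signals of 1069.5 in the control, 348 at 4 h, 2181 at 20 h and 1237 at 32 h. The scaled log2 levels were -0.051, -1.39, 0.65 and -0.019 in the same order. Probe 2, at chr7:52965461-52965520, gave signals of 1029.9, 372, 2116 and 1199.8 and levels of -0.10, -1.29, 0.60 and -0.063. The probes start 139 bases apart both in the genome and in the transcript, so no intron lies between their starts. In both, the 4 h array was lowest, the control and the 32 h array were within 2 spot errors of each other, and the 20 h array was highest. The whole range was 4.09-fold for probe 1 and 3.72-fold for probe 2.

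At 4 h the log2 ratio of *Dbp* to the control was -1.34 ± 0.21 for probe 1 and -1.19 ± 0.21 for probe 2. This was 2.53-fold and 2.28-fold lower, and probe 1 minus probe 2 was -0.15 ± 0.29. At 20 h over the control the log2 ratios were 0.70 ± 0.20 and 0.71 ± 0.20, higher than 97.8% and 97.9% of all measured probes. At 32 h over the control they were 0.032 ± 0.21 and 0.042 ± 0.21. Between the later arrays, 20 h over 32 h, *Dbp* was 1.59-fold higher with both probes, a log2 ratio of 0.66 ± 0.20. The 5th and 95th percentiles of all measured probes in that comparison were -0.34 and 0.29, and 99.6% of probes lay below *Dbp*.

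*Hlf* encodes another activator of the family. Its probe, at chr11:90200696-90200755 on mm9 (minus strand), had signals of 616 in the control, 156 at 4 h, 740.5 at 20 h and 842 at 32 h. The scaled log2 levels were -0.85, -2.55, -0.91 and -0.57. The 4 h array stood below the other 3, whose neighbouring levels lay within 2 spot errors of each other. *Hlf* was 3.26-fold lower at 4 h than in the control, with a log2 ratio of -1.70 ± 0.21. Only 1.73% of the 20392 measured probes had a lower ratio. Over the control the log2 ratio at 20 h was -0.067 ± 0.21, on the other side of 0 with 4 of the 6 other scalings, and at 32 h it was 0.27 ± 0.21.

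*Tef* encodes the third activator of the family, first described as a thyrotroph factor and expressed in many tissues. Its probe, at chr15:81657221-81657280 on mm9 (plus strand), had signals of 8608 in the control, 8737 at 4 h, 12045 at 20 h and 8078 at 32 h. The scaled log2 levels were 2.96, 3.26, 3.11 and 2.69. Ranked by size, in the order 32 h, control, 20 h and 4 h, no neighbouring levels differed beyond 2 spot errors. The highest, at 4 h, and the lowest, at 32 h, differed by 1.49-fold. The log2 ratios over the control were 0.30, 0.15 and -0.27 at 4 h, 20 h and 32 h, each ± 0.20. The ratio at 4 h was below 0 with 3 of the 6 other scalings, down to -0.10. Between 20 h and 32 h *Tef* was 1.34-fold higher at 20 h, a log2 ratio of 0.42 ± 0.20, just beyond 2 spot errors. In that comparison 98.2% of measured probes had a lower ratio.

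*Nfil3* encodes the repressor that competes with the PAR bZIP activators at D-boxes. Its probe, at chr13:53062578-53062637 on mm9 (minus strand), had signals of 7151 in the control, 8969 at 4 h, 18081 at 20 h and 17962 at 32 h. The scaled log2 levels were 2.69, 3.30, 3.70 and 3.84. The control was lowest and differed from the 4 h array beyond 2 spot errors, while the steps from 4 h to 20 h and from 20 h to 32 h were within them. This depended on the scaling. With the spike-in controls as the scale the log2 ratio was 0.20 for 4 h over the control, within 2 spot errors, and 1.001 for 20 h over 4 h, beyond them. *Nfil3* was 1.52-fold higher at 4 h, 2.01-fold higher at 20 h and 2.22-fold higher at 32 h than in the control. The log2 ratios were 0.61, 1.01 and 1.15, each ± 0.20. At both 20 h and 32 h its ratio exceeded that of 99.3% of measured probes. The 20 h value was at the threshold and came to 0.99 with the scaling on probes detected on all arrays.

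*Bhlhe40* encodes DEC1. Its probe, at chr6:108616309-108616368 on mm9 (plus strand), had signals of 183 in the control, 295 at 4 h, 232 at 20 h and 253 at 32 h, with scaled log2 levels of -2.60, -1.63, -2.59 and -2.31. The 4 h array was highest and the other 3 were within 2 spot errors of their neighbours. Its 4 h over control log2 ratio was 0.97 ± 0.22, or 1.96-fold, just under the threshold, and it was between 0.57 and 0.97 over all scalings. At that time 91.0% of measured probes had a lower ratio. At 20 h the log2 ratio was 0.013 ± 0.23 and at 32 h it was 0.29 ± 0.23.

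*Bhlhe41* encodes DEC2. Its probe 1, at chr6:145811275-145811334 on mm9 (minus strand), had signals of 21.1, 28.6, 37.4 and 23.3, and probe 2, at chr6:145812652-145812711, had signals of 22.0, 6.34, 8.62 and 10.4. Neither probe passed the well-above-background flag of the scanner software on a single array, which leaves no ratio for this gene. The other flag, positive and significant, was set for probe 1 on every array and for probe 2 on the control array only. The scaled levels were between -5.75 and -5.00 for probe 1 and between -7.34 and -5.65 for probe 2. All lay under the lowest level well above background on their array, which was between -5.11 and -4.73. Nothing can be said from these arrays about a change of *Bhlhe41*.

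Counted over the 6 measured probes at 4 h over the control, 3 were at least 2-fold lower and 0 at least 2-fold higher, and the 3 stood for 2 genes. Of 23960 probes well above background on at least 1 of the 2 arrays, 8.13% were at least 2-fold lower and 11.1% at least 2-fold higher. This split, 1947 lower and 2671 higher, became 3824 lower and 1313 higher with the spike-in controls as the scale. These shares, and those below, include bounds. Of the 20392 probes measured on both arrays, like the 6 members, 1614 were lower and 1760 higher. The median log2 ratio of the 6 was -0.44, beside 0.17 over all measured probes. It counts *Dbp* with both probes and lies between -1.19 for *Dbp* probe 2 and 0.30 for *Tef*. With either *Dbp* probe left out, the median over the measured genes is that of *Tef*, 0.30. At 20 h over the control 1 of 6 was higher, *Nfil3*, against 1.35% of all probes, and 0 were lower, against 3.3%. Of the 20448 measured on both arrays, 144 were higher and 420 lower. The median was 0.42 beside -0.0034 over all, or 0.15, that of *Tef*, with either *Dbp* probe left out. Without scaling, the split of all probes went from 301 higher and 737 lower to 752 and 397. At 32 h over the control 1 of 6 was higher, again *Nfil3*, against 2.07%, and 0 were lower, against 2.59%. Of the 19969 measured on both arrays, 209 were higher and 299 lower. The median was 0.16 beside -0.0062, or 0.27, that of *Hlf*, with either *Dbp* probe left out. Without scaling 452 higher and 565 lower probes became 675 and 402.

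No member passed 2-fold for 20 h over 32 h, where 0.88% of all probes were higher and 1.88% lower by that much, or 196 and 419 probes, against 246 and 338 without scaling. Of the 20247 measured on both arrays, 39 were higher and 91 lower. For 20 h over 4 h 3 of 6 were at least 2-fold higher, both *Dbp* probes and *Hlf*, against 9.05% of all probes, and 0 were lower, against 14.9%. Of the 20852 measured on both arrays, 1881 were higher and 2434 lower. Here the log2 ratios were 2.03 ± 0.21 and 1.90 ± 0.21 for *Dbp* and 1.64 ± 0.21 for *Hlf*. The ratio of *Bhlhe40* was -0.96 ± 0.22 and that of *Nfil3* 0.40 ± 0.20, reaching 1.01 without scaling. Without scaling the split of all probes also went from 2189 higher and 3607 lower to 5588 and 1411. The 20 h over 4 h ratios use the same 4 h and 20 h arrays as the comparisons over the control and add no further sample.

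**Figure D2:**
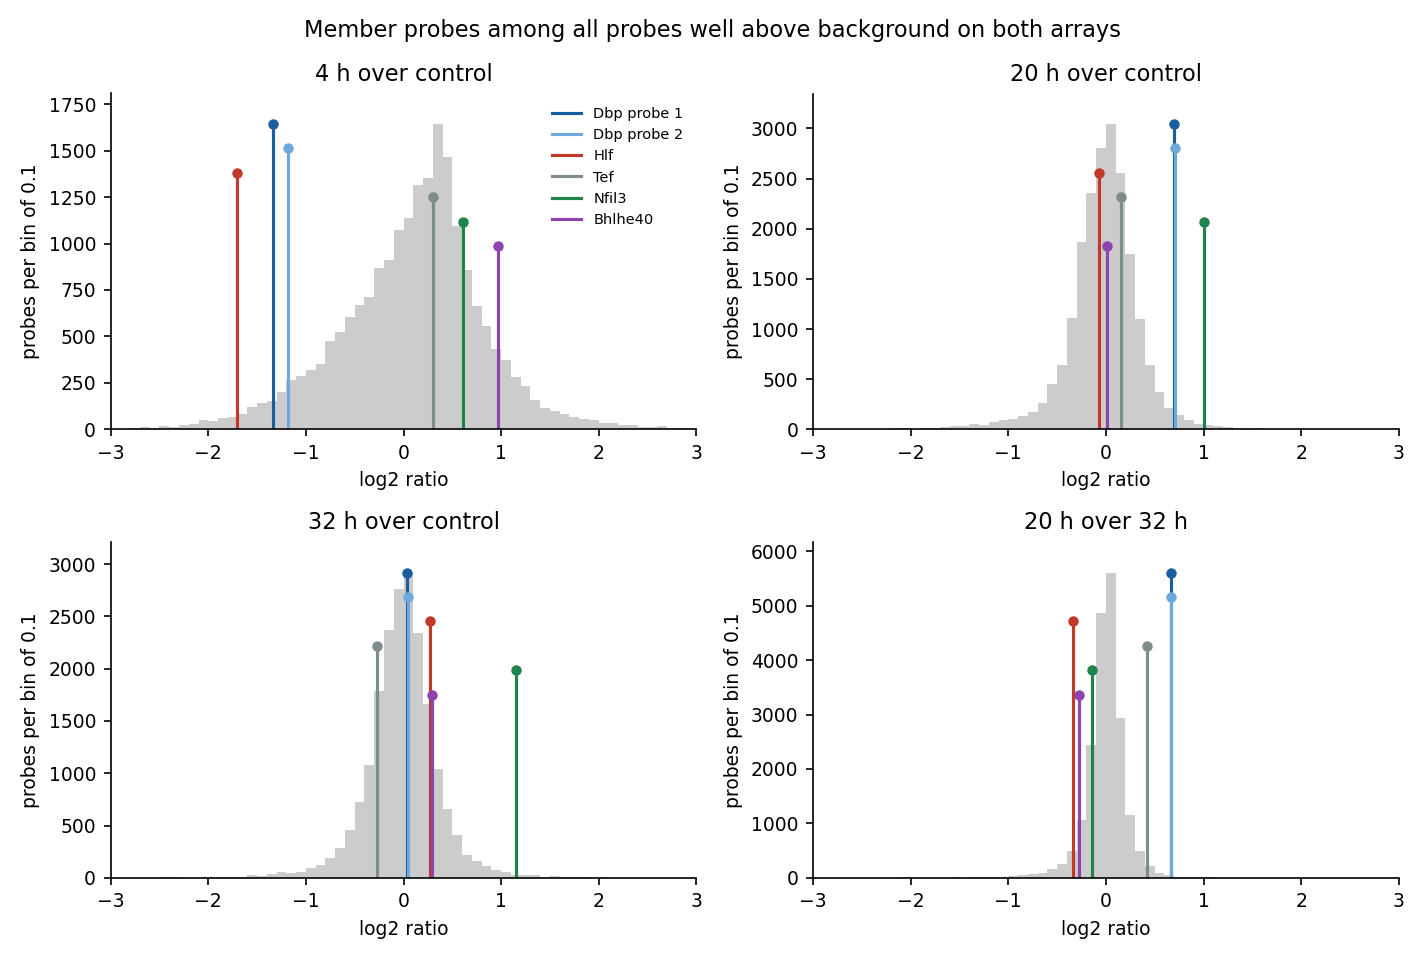
Number of probes per bin of the log2 ratio (grey) for the probes measured on both arrays, in 4 comparisons. Coloured stems mark the 6 measured member probes, and their heights only keep them apart. At 4 h *Hlf* and *Dbp* lie in the lower tail, at 20 h and 32 h *Nfil3* lies in the upper tail, and *Dbp* lies in the upper tail for 20 h over 32 h.

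Apart from quantile scaling, which acts on each level differently, a change of scaling shifts all ratios of a comparison by the same amount. For 4 h over the control the scalings moved the median of all measured probes by up to -0.40 on the log2 scale. The statements on neighbouring levels above hold for the scaling used here. Across the scaling used here and the 6 others, the log2 ratio of *Dbp* at 4 h lay between -1.74 and -1.19 over its 2 probes. That of *Hlf* lay between -2.11 and -1.70. All these values stayed past 2-fold. *Nfil3* at 4 h lay between 0.20 and 0.61. At 32 h *Nfil3* lay between 1.14 and 1.33, past 2-fold with each scaling.

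**Figure D3:**
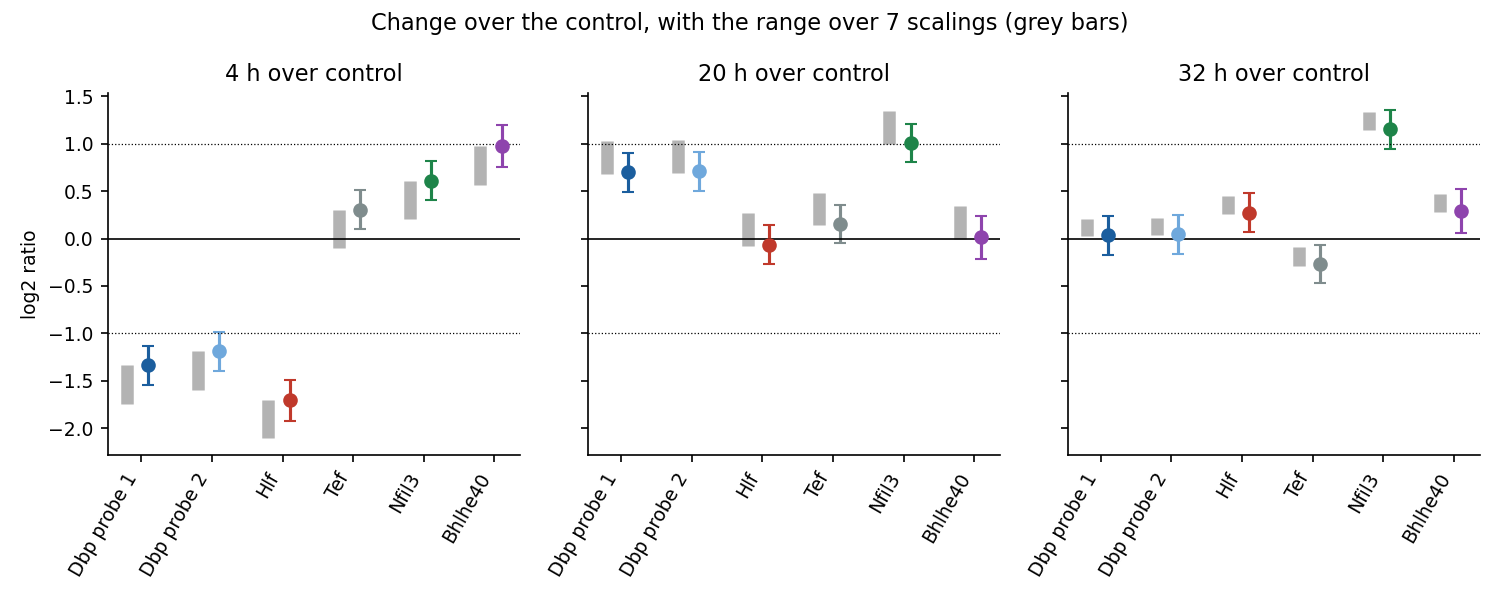
Log2 ratio over the control at 4 h, 20 h and 32 h for the 6 measured member probes, as points with 1 spot error on either side. Grey bars span the values under the scaling used here and 6 others, and dotted lines mark 2-fold. The bars of *Dbp* and *Hlf* at 4 h stay below the lower line and the bar of *Nfil3* at 32 h above the upper one.

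Differences between members on the same pair of arrays do not depend on a constant scaling. At 4 h the log2 ratio of *Hlf*, the lowest of the 3 activators, was 2.31 ± 0.30 below that of *Nfil3*, a 4.96-fold difference between these 2 RNA ratios. For the *Dbp* probes the difference from *Nfil3* was -1.94 ± 0.29 and -1.80 ± 0.29. The change of *Tef* differed from that of *Nfil3* by -0.31 ± 0.29, within 2 spot errors, but from that of *Hlf* by 2.01 ± 0.30. The 3 activators of the family thus had unequal ratios at 4 h, *Tef* apart from *Dbp* and *Hlf*. The changes of *Dbp* and *Hlf* were within 2 spot errors of each other, at 0.37 ± 0.30 and 0.52 ± 0.30.

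At 20 h over the control the change of *Dbp* was above that of *Hlf* by 0.76 ± 0.29 and 0.77 ± 0.29, and within 2 spot errors of that of *Nfil3*. *Hlf* was 2.10-fold below *Nfil3* in this sense. At 32 h all of the other 5 probes were below *Nfil3*, with *Tef* at -1.42 ± 0.29 and both *Dbp* probes at -1.12 ± 0.29 and -1.11 ± 0.29. From 20 h to 32 h the members also diverged. *Dbp* was higher at 20 h and *Hlf* had a log2 ratio of -0.34 ± 0.21, so that their changes differed by 1.004 ± 0.29, or 2.01-fold.

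**Figure D4:**
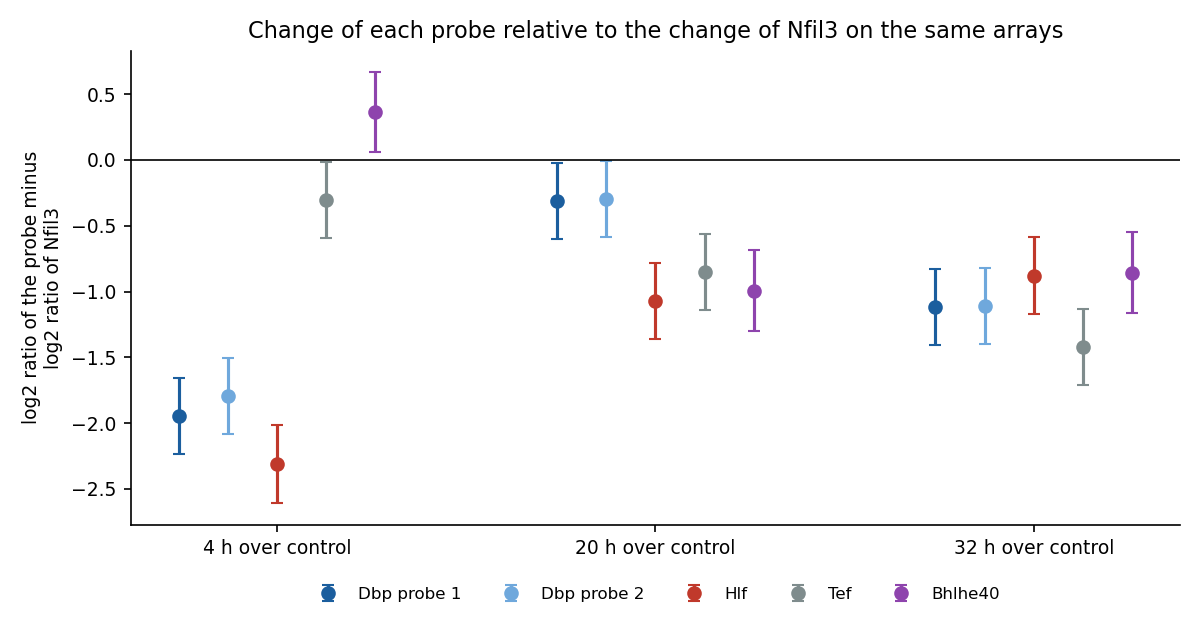
Log2 ratio over the control of each member probe minus the log2 ratio of *Nfil3* on the same arrays, with 1 spot error on either side. *Dbp* and *Hlf* lie lowest at 4 h, the *Dbp* probes are nearest to 0 at 20 h, and all probes lie below 0 at 32 h.

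The genes whose 3 log2 ratios over the control lay nearest to those of each member were found among 17296 probes with a gene symbol and well above background on all arrays. For *Nfil3* they were *Mbd5*, *Pcyt2* and *Zfr2*, at distances of 0.052, 0.12 and 0.18 on the log2 scale. For *Hlf* they were *Ankrd44*, *Rftn2* and *Mgat3*, at 0.14, 0.15 and 0.15. For *Dbp* probe 1 they were *Cstad*, *Tctn3* and *Tex9*, at 0.26, 0.26 and 0.31. The search left out other probes of the member's own gene, here *Dbp* probe 2. For *Tef* the nearest were *A430106A12Rik*, *Hist2h2ac* and *Ccdc43*, at 0.040, 0.050 and 0.052. For *Bhlhe40* they were *2010007E15Rik*, *A630007B06Rik* and *2810410L24Rik*, at 0.065, 0.071 and 0.072. Within a distance of 0.5 lay 79 probes for *Nfil3*, 137 for *Dbp* probe 1 and 321 for *Hlf*, but 1916 for *Bhlhe40* and 4651 for *Tef*. These are likenesses over 3 values from 4 arrays, with 1 control array in each.

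Genes around the members were described by lists, with the brightest probe of each gene. Of the core clock list, 14 of 14 genes were on the array and 10 had a ratio or a bound at 4 h over the control. Of these 4 were at least 2-fold higher and 1 at least 2-fold lower, beside 11.1% and 8.13% over all probes, and the median of the 8 measured was 1.001, beside 0.17 over all measured probes. All 8 measured ratios were above 0, also with each other scaling, although the number past 2-fold higher was between 1 and 4. The cryptochrome repressors *Cry1* and *Cry2* had log2 ratios of 1.52 and 1.26, the repressor *Nr1d1* (REV-ERBα) 1.09 and the activator *Arntl* (BMAL1) 1.07. The gene past 2-fold lower, named after its value was seen, was *Rorb*, an RORE-binding activator, by a bound of at least 2.27-fold at 4 h. At 20 h over the control 0 of 11 genes of this list were higher and 1 lower past 2-fold, beside 1.35% and 3.3% over all probes. The lower gene was again *Rorb*, with a bound of at least 2.55-fold against the same control array, and the median was 0.11. At 32 h 0 of 10 passed in either direction, beside 2.07% higher and 2.59% lower over all probes.

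Genes with described D-box or PAR bZIP control, 16 of 17 on the array, overlap with the clock list. At 4 h over the control 14 were well above background on at least 1 of the 2 arrays. Of these 3 were at least 2-fold higher and 2 lower, beside 11.1% and 8.13% over all probes. The median of the 10 measured was 0.84. The number higher fell to 1 with the median, with both spike-in scalings and without scaling. The largest measured log2 ratios were those of *Cry1*, *Por* (cytochrome P450 oxidoreductase, 1.15), *Nr1d1* and *Rora* (0.93). At that time *Dbp* and *Hlf* were lower and *Nfil3* had a ratio above 0. The median of the list was between 0.44 and 0.84 over the scalings, and its excess over the median of all probes was between 0.67 and 0.79. Of the measured genes, *Per1*, *Cry1*, *Rora*, *Nr1d1* and *Nr1d2* are also on the clock list. The others were *Por* and, named after their values were seen, *Abcb1b* (0.80), *Nr1i3* (0.39), *Pdxk* (0.24) and *Alas1* (-0.020). With the spike-in controls as the scale the ratios of *Nr1i3*, *Pdxk* and *Alas1* were all below 0. Whether genes under D-box control changed apart from the clock genes was not tested. The genes past 2-fold lower at 4 h, named after their values were seen, were *Rorb* and *Cyp2a4*, a liver cytochrome P450 whose near-identical relative *Cyp2a5* had no probe here. Both were well above background on the control array only. Their ratios at 4 h, 20 h and 32 h are therefore all bounds that rest on the same control array. At 20 h over the control 0 of 14 were higher and 3 lower, beside 1.35% and 3.3% over all probes. The 3 were *Rorb*, *Cyp2a4* and the nuclear receptor gene *Nr1i3*, the last also named after its values were seen. At 32 h 0 of 13 were higher and 2 lower, *Cyp2a4* and *Nr1i3*, beside 2.07% and 2.59% over all probes.

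The C/EBP genes are the bZIP relatives of the family. At 4 h over the control 2 of 4 with a ratio were at least 2-fold higher and 0 lower, beside 11.1% and 8.13% over all probes, with a median of 1.05. With 5 of the 6 other scalings 1 of 4 was past 2-fold higher, and the lowest median was 0.65. *Cebpg* had a log2 ratio of 1.84, *Cebpd* 1.26, *Cebpb* 0.85 and the stress-induced *Ddit3* (CHOP) 0.52, all above 0 with each scaling. At 20 h and 32 h 0 of 4 passed 2-fold. Over all probes 1.35% were higher and 3.3% lower by that much at 20 h, and 2.07% and 2.59% at 32 h. Of the Hes and Hey genes, bHLH repressors related to the Dec genes, 4 of 10 had a ratio and 0 passed 2-fold at 4 h. *Hes6* had a log2 ratio of -0.99, which was past 2-fold with 5 of the 6 other scalings and reached -1.39. *Hes2*, *Hes7* and *Hey1* had log2 ratios of 0.25, 0.0045 and -0.0025, the first 2 of which turned in sign with the scaling.

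Hypoxia-inducible genes were listed because both Dec genes are known targets of the hypoxia-inducible factor. At 4 h over the control 2 of 13 were at least 2-fold higher and 1 lower, beside 11.1% and 8.13% over all probes. With 5 of the 6 other scalings the counts were 1 higher and 3 lower. The median was 0.24, and it was below 0 with 4 of the 6. *Ndrg1*, a stress-responsive gene, had a log2 ratio of 2.65 and *Vegfa*, the angiogenic growth factor, 1.20. *Bnip3*, a mitophagy receptor, had -1.08 and *Pdk1*, a pyruvate dehydrogenase kinase, -0.93. The list thus had ratios on both sides of 0 at the time of the highest *Bhlhe40* level. At 20 h over the control 0 of 13 were higher and 2 lower past 2-fold, beside 1.35% and 3.3% over all probes. The 2 were *Vegfa* and, named after its value was seen, *Adm*. The median was -0.34 with 9 of 13 below 0, and *Bhlhe40* had a log2 ratio of 0.013 ± 0.23. The number lower was 1 and the median -0.0034 without scaling. For 20 h over 32 h 12 of 13 were below 0, 10 of 13 without scaling. The median was -0.23, beside 0.0083 over all measured probes. In the same comparison *Bhlhe40* had a log2 ratio of -0.28 ± 0.22, within 2 spot errors. A link between *Bhlhe40* and this list was not tested.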

How the data were processed

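Total RNA of NIH-3T3:Per2-Luc cells was labelled with Cy3 and hybridised to 4 arrays of 1 slide, 1 per condition. The authors deposited the spot intensities from Agilent Feature Extraction 10.7.3.1, with background subtracted by the software, and a table of linear signal values. Each deposited signal column equalled the intensities divided by 1 constant per array, and what that constant stands for is not given in the sources used here. Its column medians were 0.0590, 0.0757, 0.0546 and 0.0587 for the control, 4 h, 20 h and 32 h.

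Outlier spots (125 to 161 per array) were left out, log2 signals were averaged per probe and the 75th percentile of each array was subtracted. A probe counted as detected when the well-above-background flag was set in at least 50% of its spots. Where only 1 of 2 arrays was detected, the ratio was a bound against the lowest detected signal. Every member probe was described. The 3 nearest genes by Euclidean distance over the 3 log2 ratios were named for the brightest probe of each member, among probes with a gene symbol and detected on all arrays, and 4 genes per list, those with the largest measured change at 4 h. A few further list genes, behind small counts or not shared with the clock list, were named after their values were seen, and the text says so. The members and lists were chosen with earlier results of these data known.

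The study's methods name SAM. With 1 array per condition no such test was possible, and precision is limited by there being 4 arrays. The ratio step was tested on simulated data. In all 14 alternatives were tried. Python 3.11.15 and pandas 2.3.3 were used, with limma 3.58.1 in R 4.3.3 for the normexp background correction. Quantile scaling was done in Python. Probe positions are on mm9 as in the files, promoters on GRCm38.p6.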

Additional observations from a re-analysis of the deposited data

Results flagged for a closer look

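*Dbp* lay on opposite sides of the control at 4 h and 20 h with both probes. The log2 ratios of probe 1 were -1.34 at 4 h and 0.70 at 20 h, and those of probe 2 were -1.19 and 0.71. With 1 array per condition the difference was not tested, and both ratios share the control array.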

How the results depend on the processing

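No paired analysis was possible because each condition had 1 array and the labels give no replicate numbers. Of the counts of member probes past 2-fold over all comparisons and alternatives, 127 stayed within 1.5 times the reported count, 13 did not, and no member ratio that was called reversed. For 20 h over the control, the number higher was 0 with the 75th percentile of probes detected on all arrays, 3 without scaling, 3 at 1.5-fold and 0 at 3-fold. With no detection filter, and with the positive-and-significant flag, 1 probe was lower at 20 h and 1 at 32 h, *Bhlhe41* probe 2, which was not well above background. At 1.5-fold 2 probes were higher at 4 h, 2 were higher for 20 h over 32 h and 1 was lower for 20 h over 4 h. At 3-fold 1 was lower at 4 h and 0 were higher at 32 h.

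Over all probes, the number higher at 4 h was 2671 and lay between 1025 (3-fold) and 5873 (1.5-fold), and the number lower was 1947 and lay between 611 (3-fold) and 3894 (1.5-fold). For 20 h over the control the higher counts lay between 79 and 1090 around 301 and the lower between 250 and 2166 around 737. For 32 h they lay between 174 and 1617 around 452, and between 178 and 1828 around 565. For 20 h over 32 h they lay between 39 and 900 around 196, and between 91 and 1685 around 419, and for 20 h over 4 h between 682 and 5588 around 2189, and between 1411 and 7758 around 3607. The share of higher among probes past 2-fold at 4 h was 57.8%, but 25.6% with the spike-in controls. The same share was 29.0% at 20 h and 65.4% without scaling, 44.4% at 32 h and 62.7% without scaling, 31.9% for 20 h over 32 h and 42.1% without scaling, and 37.8% for 20 h over 4 h and 79.8% without scaling. The scaling and the lack of replicates limit all small ratios, and *Bhlhe41* is limited by signal over background.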
